A study of Arabidopsis thaliana with 12 samples.

Results

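The slim1-1 mutant was compared with wild type in Arabidopsis thaliana seedlings exposed to cadmium. The comparison rests on 6 of the 12 arrays of the series, chosen by their labels: 3 from slim1-1 seedlings on 100 µM cadmium and 3 from wild-type seedlings (Col-0) on 100 µM cadmium. All were whole seedlings 14 days old, grown on minimal medium, and the replicates are described as biological. The other 6 arrays hold the same genotypes on 20 µM arsenite and enter below only as a comparison. The treatment text that accompanies every sample speaks of 12 days without metal and 48 hours on arsenite, so the time the cadmium seedlings spent on cadmium is not known from it. No untreated seedlings were analysed here, and each difference below is therefore a genotype difference under cadmium, not a response to cadmium. slim1-1 is a single mutant allele, and its background of other mutations is not given in the sources used here.

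SLIM1 (also EIL3), an EIN3-like transcription factor, is the main regulator of sulfur shortage in Arabidopsis, with control of sulfate uptake, of glucosinolate breakdown and of genes used as markers of sulfur shortage. Cadmium binds thiols, displaces other metals from proteins and is held in plant cells by glutathione and by phytochelatins, the glutathione polymers, which are stored with cadmium in the vacuole. Both are built from cysteine and so from assimilated sulfate. Seedlings under cadmium commonly show misfolded proteins and oxidative stress, which are met by chaperones, peroxidases and conjugating enzymes.

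Values are the deposited log2 probe set signals. Differences are slim1-1 minus wild type on the log2 scale with the standard error (SE) of the limma fit over the 6 cadmium arrays (n = 3 arrays per genotype), and adjusted p-values are Benjamini-Hochberg values over 13356 genes, with a threshold of 0.05. "Rose", "fell", "higher" and "lower" refer to slim1-1 relative to wild type. Where a gene is described as having groups apart, every slim1-1 array lay on the same side of every wild-type array. The gene lists used below were chosen with earlier results of these data known, so their counts are descriptions only.

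Of 13356 genes, 1462 passed the threshold (10.9%), 814 of them higher in slim1-1 (6.09%) and 648 lower (4.85%). With the arrays shifted to a common median the split was 634 higher and 934 lower. The difference was at least 2-fold for 119 of the 1462, with 61 higher and 58 lower, and at least 4-fold for 9 higher and 2 lower. All 1462 genes had their groups apart, as had 31.2% of all genes tested. The median size of the difference was 0.46 for the genes past the threshold and 0.11 for all genes, and the median signed difference over all genes was -0.01. The count without a given array ranged from 653 (without slim1-1 replicate 2, and likewise without wild-type replicate 1) to 1312 (without slim1-1 replicate 3). It was 922 when wild-type replicate 2 was left out and 861 when wild-type replicate 3 was. Of the 1462 genes, 539 passed in all 6 of these fits, and of the 119 genes with at least a 2-fold difference, 109 did.

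The arrays of a genotype resembled each other more than those of the other genotype, with a correlation across genes of 0.995 to 0.997 within a genotype and 0.990 to 0.992 between them. Array medians were 5.63, 5.64 and 5.64 in slim1-1 and 5.6, 5.58 and 5.59 in wild type (difference 0.05, exact permutation p = 0.1, a two-sided test that can give no lower p with 3 arrays per genotype). The signal of the 3' actin probe set minus the 5' actin probe set, a sign of RNA integrity, was 3.71, 3.84 and 3.97 in slim1-1 and 3.6, 3.61 and 3.53 in wild type (difference 0.25, exact permutation p = 0.1). The same measure differed by -0.07 for GAPDH and 0.00127 for ubiquitin (exact permutation p = 0.3 and 1). The 25S ribosomal RNA probe set was 9.45, 10.12 and 9.66 in slim1-1 and 10.27, 10.65 and 10.37 in wild type (difference -0.68, exact permutation p = 0.1). The part of these differences in the results below was not tested. Genes of low signal passed least often: in 4 bins of equal size from the lowest to the highest mean level, 0.749%, 9.37%, 15.5% and 18.1% passed.

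**Figure D1:**
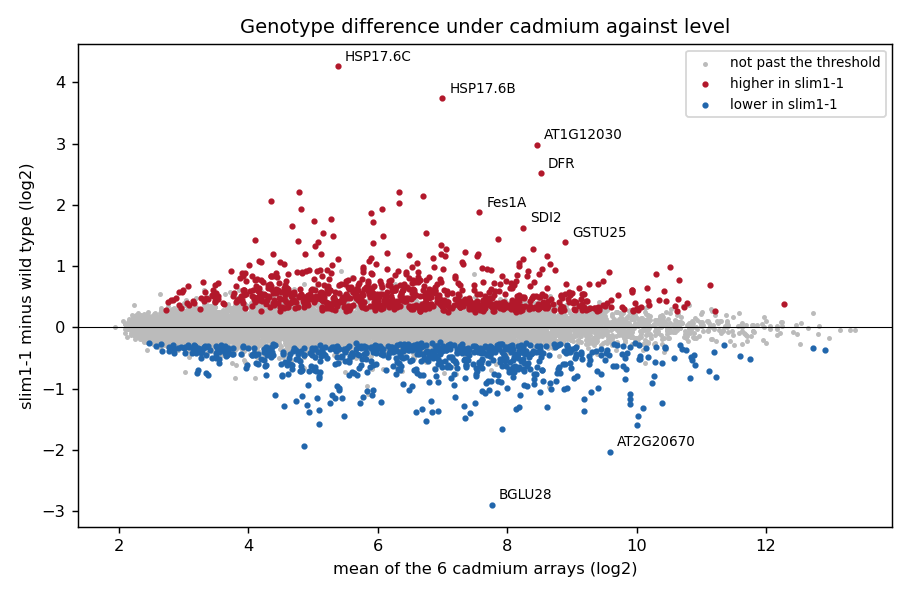
Difference between slim1-1 and wild type under cadmium (y axis, log2) against the mean of the 6 cadmium arrays (x axis, log2), a point for each of 13356 genes, with the 814 genes past the threshold that were higher in slim1-1 and the 648 that were lower in colour. HSP17.6C and HSP17.6B stand highest at 4.27 and 3.74, BGLU28 stands lowest at -2.90, and few of the genes of lowest level are coloured.

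Among the 13356 genes that a probe set names, chaperone genes held the largest rises, and 2 probe sets with no gene in the tables used rose more (250351_at by 4.93 and 250296_at by 4.70). Of 9 measured genes of heat shock proteins and their partners, 6 rose (66.7% against 6.09% of all genes) and 0 fell. The median difference was 0.70 against -0.01 over all genes, and 5 to 6 rose without a given array. HSP17.6C (AT1G53540), a cytosolic small heat shock protein that holds unfolded proteins in solution, had 6.95, 7.70 and 7.90 in slim1-1, against 3.22, 3.37 and 3.16 in wild type. The groups lay far apart, and the wild-type mean was below the lower quartile of those arrays, so the 19.2-fold difference (4.27 ± 0.21, adjusted p = 6.97e-05) is not exact. HSP17.6B (AT2G29500), of the same class, had 8.44, 9.02 and 9.14 in slim1-1 and 5.06, 5.41 and 4.92 in wild type. Its wild-type signal lay above the lower quartile, and the difference was 13.4-fold (3.74 ± 0.19, adjusted p = 6.97e-05).

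HSP26.5 (AT1G52560), another small heat shock protein, had 5.34, 5.80 and 6.53 in slim1-1, against 3.64, 3.57 and 3.83 in wild type, a 4.61-fold difference (adjusted p = 0.0012). HSP15.7 (AT5G37670), which is peroxisomal, rose by 0.70 ± 0.07 (adjusted p = 0.000935), and the mitochondrial HSP23.5 (AT5G51440) by 0.59 ± 0.14 (adjusted p = 0.0285). The HSP23.5 call was lost without slim1-1 replicate 2 or 3, without wild-type replicate 1 or 2, and with all 12 arrays in the fit. HSP22 (AT4G10250), the small heat shock protein of the endoplasmic reticulum, had 3.28, 3.58 and 3.62 in slim1-1 and 3.37, 3.20 and 3.27 in wild type. Its groups overlapped, its wild-type mean was below the lower quartile, and it did not pass (0.21 ± 0.10, adjusted p = 0.227).

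Partners of the HSP70 and HSP90 machines differed among themselves. ROF2 (AT5G48570), a prolyl isomerase that modulates heat shock transcription, had 6.64, 7.06 and 7.39 in slim1-1 and 4.73, 5.34 and 5.21 in wild type, a 3.83-fold difference (adjusted p = 0.000904). Fes1A (AT3G09350), a co-chaperone of cytosolic HSP70, had 8.26, 8.70 and 8.59 in slim1-1 and 6.49, 6.44 and 6.96 in wild type, a 3.69-fold difference (adjusted p = 0.000396). Of the 3 measured FES1 genes it was the member that passed, and Fes1C (AT5G02150) differed by -0.24 ± 0.10 (adjusted p = 0.15). BOB1 (AT5G53400), a NudC-domain chaperone needed for heat tolerance, rose by 0.43 ± 0.08 (adjusted p = 0.0139), and SQN (AT2G15790), the cyclophilin 40 that works with HSP90, by 0.51 ± 0.10 (adjusted p = 0.0144). Both calls were lost without slim1-1 replicate 2, that of BOB1 also without wild-type replicate 1, and that of SQN also with the mean of its probe sets. The HSP70-HSP90 organiser HOP3 (0.37 ± 0.12, adjusted p = 0.0894) and the heat-induced HSA32 (-0.11 ± 0.10, adjusted p = 0.543) did not pass. BZIP60, a transcription factor of the response to misfolded protein in the endoplasmic reticulum, was the measured member of that list and did not pass (0.09 ± 0.08, adjusted p = 0.513). AT1G71000, a locus without a symbol in the tables used, had 4.64, 5.33 and 6.20 in slim1-1 and 3.49, 3.37 and 3.14 in wild type, with the groups apart and a 4.16-fold difference (adjusted p = 0.00553).

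Flavonoid synthesis genes also rose. Of 6 measured genes, 5 rose (83.3% against 6.09% of all genes) and 0 fell. The median difference was 1.84 against -0.01 over all genes, and 4 to 5 rose without a given array. DFR (AT5G42800), the reductase that commits flavonoids to anthocyanins, had 10.31, 10.04 and 8.97 in slim1-1, against 7.04, 7.45 and 7.29 in wild type. The groups were apart by more than 1 log2 unit on every array and the difference was 5.71-fold (2.51 ± 0.30, adjusted p = 0.00145). UF3GT (AT5G54060), an anthocyanin glycosyltransferase, had 7.91, 7.62 and 6.77 in slim1-1 and 5.30, 5.42 and 4.97 in wild type, a 4.62-fold difference (adjusted p = 0.00139). UGT75C1 (AT4G14090), the anthocyanin 5-O-glucosyltransferase, had 7.83, 7.57 and 6.65 in slim1-1 and 5.16, 5.43 and 5.37 in wild type, a 4.09-fold difference (adjusted p = 0.00219). In all 3 genes the slim1-1 array nearest to wild type was replicate 3.

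The malonyltransferase 5MAT (AT3G29590), which decorates anthocyanins, rose 3.15-fold (adjusted p = 0.0045). Further genes of phenolic synthesis were picked after their values were seen, apart from UGT78D2. That gene is in the list, which was itself chosen with earlier results of these data known. CHIL (AT5G05270), a chalcone isomerase-like protein that raises flux into the pathway, rose 1.80-fold (adjusted p = 0.00555), and UGT84A3 (AT4G15490), a glucosyltransferase of hydroxycinnamates, 2.05-fold (adjusted p = 0.00296). The flavonoid 3-O-glucosyltransferase UGT78D2 (AT5G17050) rose by 0.58 ± 0.14 (adjusted p = 0.0353) and the flavonol rhamnosyltransferase UGT78D1 (AT1G30530) by 0.42 ± 0.11 (adjusted p = 0.0415). The UGT78D2 call was lost in 5 of the 6 fits that leave out an array, all but that without slim1-1 replicate 3. The UGT78D1 call was lost in 4 of the 6, and with a common median.

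The slim1-1 replicates ordered the chaperone and the flavonoid genes in opposite ways. Of the 6 chaperone genes that rose, 6 had their lowest slim1-1 value in replicate 1 and 5 had their highest in replicate 3. Of the 5 flavonoid genes that rose, 5 had their highest slim1-1 value in replicate 1 and 5 had their lowest in replicate 3. Over all 814 genes that rose, replicate 1 was the lowest slim1-1 array for 267, replicate 2 for 182 and replicate 3 for 365. The actin 3' minus 5' measure was likewise lowest in slim1-1 replicate 1 and highest in replicate 3, and its part in either pattern was not tested. In wild type the same chaperone genes were lowest in replicate 1 for 3 of 6, and the same flavonoid genes for 3 of 5.

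**Figure D2:**
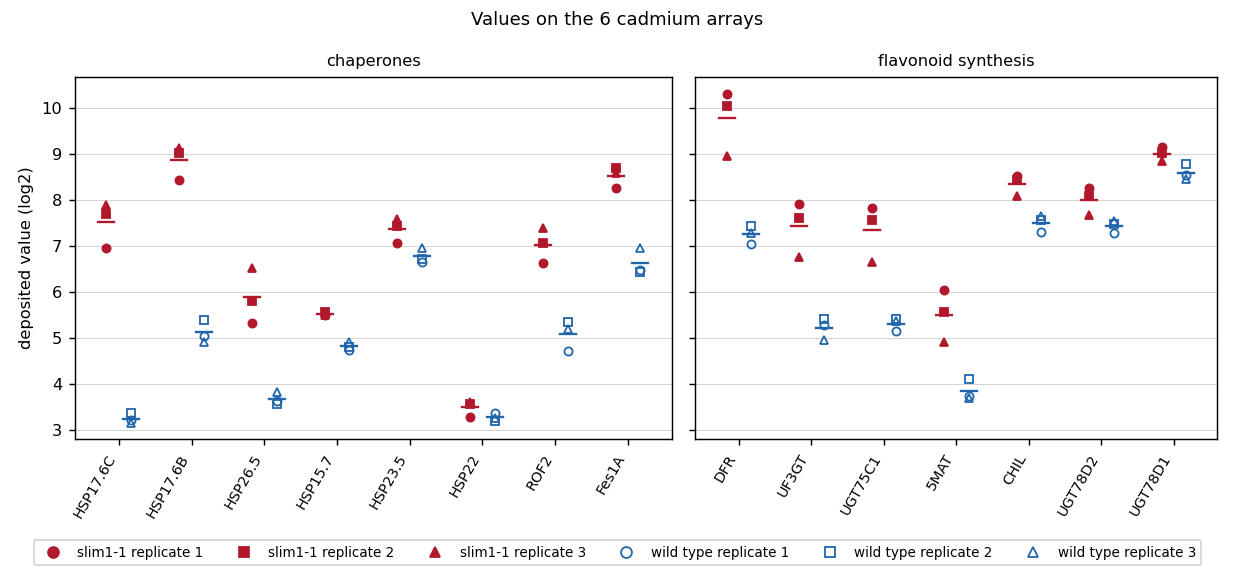
Deposited log2 values (y axis) of 8 chaperone genes and 7 flavonoid genes on the 3 slim1-1 arrays (filled) and the 3 wild-type arrays (open) under cadmium, with a marker shape per replicate number and a line at each mean. Slim1-1 replicate 1 (circle) is lowest for HSP17.6C, at 6.95, and highest for DFR, at 10.31, whereas HSP22 overlaps between the genotypes.

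Sulfur genes moved both ways. SDI2 (AT1G04770), induced by sulfur deficiency and known as a repressor of glucosinolate synthesis, had 9.12, 9.26 and 8.78 in slim1-1, against 7.38, 7.64 and 7.26 in wild type. All slim1-1 arrays lay above wild type, by 3.09-fold on average (1.63 ± 0.14, adjusted p = 0.0004). BGLU28 (AT2G44460), a beta-glucosidase also induced by sulfur deficiency and linked to glucosinolate breakdown, had 6.23, 5.83 and 6.88 in slim1-1, against 8.86, 9.39 and 9.39 in wild type. It fell by 2.90 ± 0.25 (adjusted p = 0.000396), the largest fall among the 13356 genes. The 2 measured markers of sulfur starvation thus passed in opposite directions.

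Of 3 measured genes of sulfate uptake and assimilation, 0 rose and 2 fell (66.7% against 4.85% of all genes). The median difference was -0.39, and 1 to 2 fell without a given array. APS3 (AT4G14680), an ATP sulfurylase that activates sulfate, had 7.64, 7.63 and 7.71 in slim1-1 and 8.57, 8.65 and 7.97 in wild type. The 3 slim1-1 arrays were close together and wild-type replicate 3 lay nearest to them (-0.73 ± 0.16, adjusted p = 0.0222, a call lost without slim1-1 replicate 1 or 2 or wild-type replicate 1 or 2). SIR (AT5G04590), the sulfite reductase that makes sulfide, had 8.25, 8.25 and 8.13 in slim1-1 and 8.58, 8.60 and 8.60 in wild type (-0.39 ± 0.07, adjusted p = 0.0107). APS4 (AT5G43780), another ATP sulfurylase, had 8.34, 8.34 and 8.31 in slim1-1 and 8.24, 8.25 and 7.93 in wild type and did not pass (0.19 ± 0.10, adjusted p = 0.25).

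Of 2 measured glutathione genes, the glutathione reductase GR1 (AT3G24170) rose by 0.29 ± 0.07 (adjusted p = 0.036), a call lost in each of the 6 fits that leave out an array. The organellar reductase GR2 (AT3G54660) differed by -0.24 ± 0.10 (adjusted p = 0.184). Genes of methionine and of protein methionine repair that were picked after their values were seen also passed. MGL (AT1G64660), the methionine gamma-lyase that breaks methionine down, fell by 0.66 ± 0.07 (adjusted p = 0.00119). HMT-1 (AT3G25900), which makes methionine from homocysteine, rose by 0.63 ± 0.08 (adjusted p = 0.00223), and the sulfurtransferase STR18 (AT5G66170) by 0.73 ± 0.12 (adjusted p = 0.00758).

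Of 5 measured methionine sulfoxide reductases, which reduce oxidised methionine in proteins, 0 rose and 2 fell (40% against 4.85% of all genes). MSRB6 (AT4G04840) had 9.29, 9.40 and 9.51 in slim1-1 and 10.25, 10.22 and 10.23 in wild type (-0.84 ± 0.08, adjusted p = 0.00057). MSRB9 (AT4G21850) fell by 0.63 ± 0.10 (adjusted p = 0.00519). Of 4 measured glucosinolate genes 0 passed in limma and 2 had an unadjusted p under 0.05, with GSTU20 at 0.41 and adjusted p = 0.0503. The metal transport and binding list had 3 measured members, of which 0 passed in limma and 1 had an unadjusted p under 0.05. Its widest spread was in CCS1 (AT1G12520), the copper chaperone of superoxide dismutase, with 8.66, 8.29 and 6.82 in slim1-1 and 7.0, 6.60 and 7.55 in wild type (0.87 ± 0.43, adjusted p = 0.238). The zinc transporter ZIP9 differed by 0.36 ± 0.12 (adjusted p = 0.097).

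Among the 13356 genes, the largest falls after BGLU28 were in loci that carry no symbol in the tables used, and 2 probe sets with no gene there fell more than these loci (266901_at by 2.72 and 263539_at by 2.24). AT2G20670 had 8.45, 8.48 and 8.79 in slim1-1 and 10.64, 10.32 and 10.86 in wild type (-2.03 ± 0.14, adjusted p = 0.000311). AT1G15010 had 3.59, 3.91 and 4.16 in slim1-1 and 6.10, 6.01 and 5.35 in wild type (-1.93 ± 0.20, adjusted p = 0.000918). AT1G62510 fell by 1.59 ± 0.09, with slim1-1 arrays at 9.04, 9.33 and 9.28 and wild-type arrays at 10.79, 10.82 and 10.81. In these loci, as in AT2G25200 (-1.67), AT1G70880 (-1.59) and AT3G60270 (-1.52), the groups were apart and the call held without any given array. AT3G23880, AT2G37950, AT4G27450, AT4G28290 and AT5G59680 fell by 1.49, 1.45, 1.44, 1.4 and 1.39. Among the rises, AT1G12030 had 10.41, 10.03 and 9.41 in slim1-1 and 6.81, 7.10 and 7.0 in wild type, a 7.91-fold difference (adjusted p = 0.000311). AT4G33550 was 4.42-fold and AT4G20820 3.80-fold higher (adjusted p = 0.000396 and 0.000503).

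**Figure D3:**
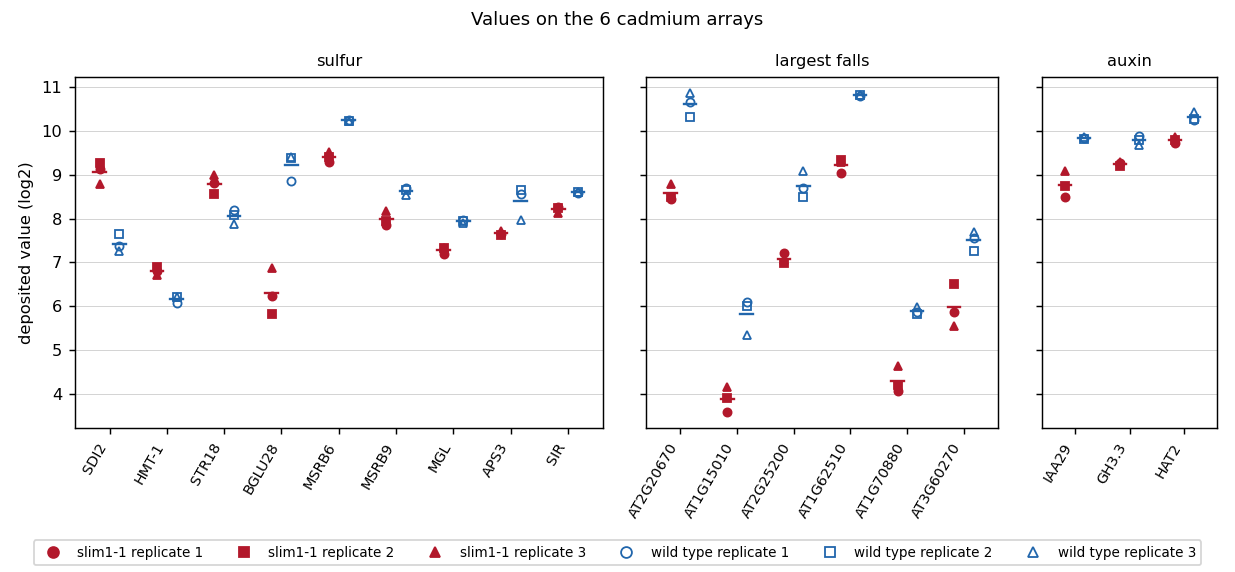
Deposited log2 values (y axis) of 9 sulfur genes, 6 loci with large falls and 3 auxin genes on the 3 slim1-1 arrays (filled) and the 3 wild-type arrays (open) under cadmium, with a line at each mean. SDI2 lies higher in slim1-1 and BGLU28 lower, and wild-type replicate 3 of APS3, at 7.97, lies closest to the slim1-1 arrays.

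Several conjugating and protective enzymes rose. Of 6 measured genes of xenobiotic and mitochondrial stress, 4 rose (66.7% against 6.09% of all genes) and 0 fell. The median was 0.55, and 2 to 4 rose without a given array. The glutathione transferase GSTU25 (AT1G17180) had 9.52, 9.49 and 9.78 in slim1-1 and 8.21, 8.39 and 8.01 in wild type, a 2.63-fold difference (adjusted p = 0.000396). Its neighbour GSTU26 (AT1G17190) rose 1.79-fold (adjusted p = 0.00082). Of all 11 measured tau-class glutathione transferases 2 rose and 1 fell (27.3% against 10.9% of all genes), and the class as a whole had a median of 0.10. The stress-induced glucosyltransferases UGT73B5 and UGT73B4 rose by 0.62 ± 0.12 (adjusted p = 0.014) and 0.55 ± 0.11 (adjusted p = 0.018). AT12CYS, a mitochondrial stress gene, rose by 0.56 ± 0.15 (adjusted p = 0.0456). The AT12CYS call was lost in 5 of the 6 fits without an array, with a common median, with quantile normalization and with the replicate number as a block. That of UGT73B4 was lost without slim1-1 replicate 2 or wild-type replicate 2. The other members of the list, UPOX (0.04, adjusted p = 0.935) and NDB2 (0.02, adjusted p = 0.918), did not pass.

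AER (AT5G16970), an alkenal reductase that detoxifies reactive carbonyls, had 7.69, 8.0 and 7.82 in slim1-1 and 6.78, 6.92 and 6.74 in wild type, a 2.04-fold difference (adjusted p = 0.00057). CYP71B26 (AT3G26290), a cytochrome P450, had 7.60, 7.53 and 7.58 in slim1-1 and 6.32, 6.42 and 6.38 in wild type, a 2.30-fold difference (adjusted p = 8.56e-05). CYP71B23 (AT3G26210) fell by 0.65 ± 0.11 (adjusted p = 0.00905), and of 26 measured cytochrome P450 genes 2 rose and 1 fell, 11.5% against 10.9% of all genes. Of 4 measured antioxidant genes, 2 rose (50% against 6.09% of all genes). The ascorbate peroxidase SAPX rose by 0.74 ± 0.08 (adjusted p = 0.00097) and the zinc finger regulator ZAT10 2.30-fold (adjusted p = 0.00109), whereas the thylakoid peroxidase TAPX differed by -0.13 ± 0.07 (adjusted p = 0.274). Of 51 measured UDP-glycosyltransferases 9 rose and 4 fell (25.5% against 10.9% of all genes), with a median of 0.02, among which the anthocyanin enzymes are counted again.

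Genes of the vacuole, of autophagy and of protein breakdown also passed, in groups formed after values were seen. Of 4 vacuolar processing enzymes, cysteine proteases that mature vacuolar proteins, 3 rose (75% against 6.09% of all genes) and 0 fell. BETA-VPE (AT1G62710) had 6.82, 6.92 and 6.72 in slim1-1 and 5.25, 5.50 and 5.27 in wild type, a 2.79-fold difference (adjusted p = 0.000144). GAMMA-VPE (AT4G32940), the enzyme of vegetative tissue, had 11.27, 11.03 and 10.82 in slim1-1 and 10.26, 10.33 and 10.21 in wild type, a 1.71-fold difference (adjusted p = 0.00418). ALPHA-VPE rose by 0.52 ± 0.12 (adjusted p = 0.0263, lost in 4 of the 6 fits without an array and with all 12 arrays in the fit). DELTA-VPE was below the lower quartile in both genotypes and did not pass (-0.09 ± 0.07, adjusted p = 0.479).

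Of 7 measured ATG8 genes, which encode the ubiquitin-like coat of autophagosomes, 3 rose (42.9% against 6.09% of all genes) and 0 fell. Without a given array, however, the number that rose ranged from 0 to 4. ATG8H, ATG8B and ATG8D rose by 0.51, 0.42 and 0.39 (adjusted p = 0.0188, 0.0372 and 0.012). All 3 calls were lost without slim1-1 replicate 2, and also when wild-type replicate 1 was left out. Of 29 serine carboxypeptidase-like genes 5 rose (17.2% against 6.09% of all genes) and 0 fell, with a median of 0.03 against -0.01 over all genes. Of these, scpl20 and scpl48 rose by 0.60 and 0.55 (adjusted p = 0.003 and 0.00758). WRKY6, a transcription factor of senescence, rose by 0.57 ± 0.12 (adjusted p = 0.0205), a call lost without slim1-1 replicate 2 or wild-type replicate 1 or 3.

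Several genes of mitochondrial respiration and carbon use passed, picked after their values were seen except for QQS. QQS is in a list, itself chosen with earlier results of these data known. Of 4 succinate dehydrogenase subunits, which form complex II of the respiratory chain, 3 rose (75% against 6.09% of all genes) and 0 fell. SDH2-1 rose by 0.52 ± 0.07 (adjusted p = 0.00338), SDH1-1 by 0.41 ± 0.08 (adjusted p = 0.0115) and SDH2-2 by 0.34 ± 0.08 (adjusted p = 0.034). The SDH2-2 call was lost in each of the 6 fits without an array, and the SDH2-1 call with the mean of its probe sets. CYTC-2, a cytochrome c gene, rose by 0.51 ± 0.08 (adjusted p = 0.00464), and ICL, the isocitrate lyase of the glyoxylate cycle, by 0.86 ± 0.16 (adjusted p = 0.0132). The first call was lost with all 12 arrays in the fit and the second without wild-type replicate 1. ETFQO and MCCA, both of branched-chain amino acid breakdown, fell by 0.54 and 0.50 (adjusted p = 0.00877 and 0.0188), the MCCA call being lost without slim1-1 replicate 2 or wild-type replicate 1 or 3. The mitochondrial gene nad6 rose by 1.01 ± 0.22 (adjusted p = 0.0201), on a probe set whose name marks it as able to match several transcripts, and the call was lost without wild-type replicate 2 or 3.

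APL3 (AT4G39210), a subunit of the enzyme that commits glucose to starch, had 6.71, 6.39 and 6.29 in slim1-1 and 5.31, 5.55 and 5.12 in wild type, a 2.19-fold difference (adjusted p = 0.00163). QQS (AT3G30720), an orphan gene found in Arabidopsis that lowers leaf starch, had 6.51, 6.44 and 7.12 in slim1-1 and 8.08, 8.04 and 7.81 in wild type (-1.29 ± 0.17, adjusted p = 0.00275). AKINBETA1 (AT5G21170), a subunit of the energy-sensing kinase SnRK1, fell by 1.01 ± 0.16 (adjusted p = 0.00611). Of 15 SWEET sugar transporters 3 rose and 1 fell (26.7% against 10.9% of all genes). SWEET13 (AT5G50800) rose by 0.95 ± 0.16 (adjusted p = 0.00758) and SAG29 (AT5G13170, SWEET15) by 0.81 ± 0.21 (adjusted p = 0.0376). TMT2, which moves sugars into the vacuole, rose by 0.62 ± 0.12 (adjusted p = 0.0133). The SAG29 call was lost in 5 of the 6 fits without an array and the TMT2 call without slim1-1 replicate 2.

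**Figure D4:**
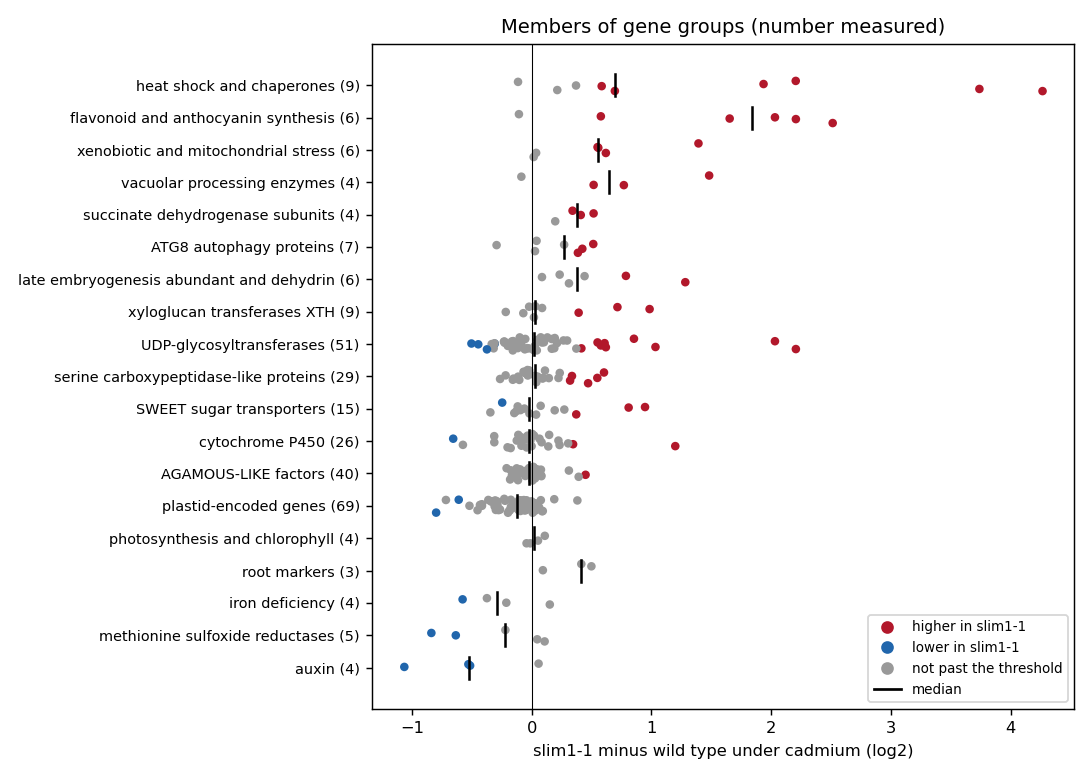
Difference between slim1-1 and wild type under cadmium (x axis, log2) for each measured member of 19 gene groups (rows, with the number measured), coloured where past the threshold, with the group's median as a vertical line. The 9 chaperone genes reach 4.27 and the 4 auxin genes reach -1.06, whereas most of the 51 UDP-glycosyltransferases, 40 AGAMOUS-LIKE genes and 69 plastid-encoded genes lie near 0.

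Several regulators of hormone and stress signalling fell. Of 4 measured auxin genes 3 fell (75% against 4.85% of all genes) and 0 rose, also without any given array, with a median of -0.52. IAA29 (AT4G32280), an auxin-induced repressor, had 8.49, 8.74 and 9.07 in slim1-1 and 9.83, 9.80 and 9.86 in wild type (-1.06 ± 0.13, adjusted p = 0.0019). GH3.3 (AT2G23170), which conjugates auxin to amino acids, had 9.27, 9.19 and 9.29 in slim1-1 and 9.87, 9.79 and 9.68 in wild type (-0.53 ± 0.08, adjusted p = 0.00435). HAT2 (AT5G47370), an auxin-induced homeodomain factor, had 9.73, 9.79 and 9.86 in slim1-1 and 10.25, 10.26 and 10.42 in wild type (-0.51 ± 0.08, adjusted p = 0.00541). The IAA29 call was lost with all 12 arrays in the fit.

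ORA47 (AT1G74930), an activator of jasmonate synthesis, had 3.89, 4.05 and 3.65 in slim1-1 and 5.39, 4.82 and 4.70 in wild type (-1.11 ± 0.18, adjusted p = 0.00611). JRG21, a jasmonate-regulated gene, fell by 0.78 ± 0.15 (adjusted p = 0.0147, lost without wild-type replicate 1 or 2). WRKY22 (AT4G01250), a factor of immune signalling, had 5.25, 5.29 and 5.41 in slim1-1 and 6.40, 6.25 and 6.42 in wild type (-1.04 ± 0.08, adjusted p = 0.00039). The calmodulin-like calcium sensor CML37 (AT5G42380) went the other way, with 4.09, 5.15 and 5.20 in slim1-1 and 3.42, 3.43 and 3.33 in wild type, a 2.67-fold difference (adjusted p = 0.0099) in which slim1-1 replicate 1 lay nearest to wild type. Of 7 measured CML genes 3 rose (42.9% against 6.09% of all genes), 0 fell and 4 did not pass, among them CML41 at -1.08 ± 0.35 (adjusted p = 0.0836). CML23 and CML42 rose by 0.46 and 0.41 (adjusted p = 0.0274 and 0.0288), calls lost in 4 and 5 of the 6 fits without an array. Of 2 measured ethylene genes 0 passed in limma and 0 had an unadjusted p under 0.05, among them EIN3 (-0.11 ± 0.08, adjusted p = 0.402), the factor after which the family of SLIM1 is named. Of 2 measured genes of salicylate and pathogen defence likewise 0 passed in limma, with 0 at an unadjusted p under 0.05. GI, a clock gene, rose by 0.41 ± 0.10 (adjusted p = 0.0315), a call lost in each of the 6 fits without an array.

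Of 6 late embryogenesis abundant and dehydrin genes, which protect cells as they dry, 2 rose (33.3% against 6.09% of all genes). Of the same genes 0 fell and 4 did not pass, with a median of 0.38. LTI30 (AT3G50970), a dehydrin, had 9.04, 8.78 and 9.29 in slim1-1 and 7.68, 7.96 and 7.62 in wild type, a 2.43-fold difference (adjusted p = 0.000949). HIS1-3 (AT2G18050), a drought-induced linker histone that is in no list, had 8.52, 8.61 and 8.63 in slim1-1 and 7.26, 7.24 and 6.93 in wild type, a 2.72-fold difference (adjusted p = 0.000299). LEA4-5 rose by 0.79 ± 0.20 (adjusted p = 0.0369), a call lost in 5 of the 6 fits without an array. Of 3 measured genes of the abscisic acid, cold and drought list 0 passed in limma, with 1 at an unadjusted p under 0.05. COR15A (AT2G42540), a cold-induced chloroplast protein, had 8.16, 8.19 and 8.20 in slim1-1 and 8.18, 8.39 and 6.66 in wild type (0.44 ± 0.37, adjusted p = 0.505), and without wild-type replicate 3 its difference was -0.10. COR47 differed by 0.31 ± 0.10 (adjusted p = 0.0938).

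Cell wall genes moved both ways. EXPA8, the measured member of the cell wall list, did not pass (-0.27 ± 0.13, adjusted p = 0.208). Of 9 measured xyloglucan transferases 3 rose (33.3% against 6.09% of all genes) and 0 fell, with XTH19 and XTH18 at 0.99 ± 0.13 and 0.72 ± 0.13 (adjusted p = 0.0032 and 0.00916). Of 10 alpha-expansins 1 rose and 0 fell (10% against 10.9% of all genes), and of 8 beta-expansins and expansin-like genes 3 rose and 1 fell (50% against 10.9%). The expansin-like EXLB1 (AT4G17030) rose 2.16-fold (adjusted p = 0.00139), EXLA1 fell by 0.64 ± 0.09 (adjusted p = 0.00296), and the pectin methylesterase PME61 rose 1.98-fold (adjusted p = 0.00555). The cysteine-rich peptide PDF2.5 (AT5G63660) had 4.71, 4.94 and 4.49 in slim1-1 and 3.83, 3.61 and 3.45 in wild type, a 2.12-fold difference (adjusted p = 0.00186). The thionins THI2.1 and THI2.2, also cysteine-rich peptides, fell by 0.70 and 0.48 (adjusted p = 0.00391 and 0.0417). The slim1-1 mean of THI2.1 was below the lower quartile of those arrays, and the THI2.2 call was lost in 5 of the 6 fits without an array.

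Of 4 measured iron deficiency genes 1 fell (25% against 4.85% of all genes). This was BHLH101 (-0.58 ± 0.12, adjusted p = 0.018), a factor that promotes iron uptake, and its call was lost without wild-type replicate 2 and with all 12 arrays in the fit. The regulator bHLH121 (AT3G19860), outside the list, had 7.66, 7.57 and 7.60 in slim1-1 and 8.19, 8.14 and 8.4 in wild type (-0.63 ± 0.09, adjusted p = 0.00306). The iron regulators PYE (-0.21, adjusted p = 0.0938) and IMA1 (0.15, adjusted p = 0.493), and F6H1 of coumarin synthesis (-0.37, adjusted p = 0.127), did not pass.

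Markers of organs and plastids were set beside these changes, since whole seedlings mix organs, and fewer cells of a kind cannot be told apart from less RNA in each. Of 3 measured root markers 0 passed in limma and 2 had an unadjusted p under 0.05, with PYK10 at 0.09 ± 0.08 (adjusted p = 0.53), and the root hair expansins EXPA7 at 0.41 (adjusted p = 0.105) and EXPA18 at 0.50 (adjusted p = 0.125). Among 4 measured photosynthesis genes the median was 0.02, and 0 passed in limma, with 0 at an unadjusted p under 0.05. STOMAGEN (AT4G12970), a peptide from the leaf interior that promotes stomata, had 8.19, 8.14 and 8.22 in slim1-1 and 8.88, 8.90 and 8.85 in wild type (-0.69 ± 0.07, adjusted p = 0.000637). The guard cell factor FMA fell by 0.32 ± 0.07 (adjusted p = 0.0274, lost in 5 of the 6 fits without an array). Of 4 stomatal genes, grouped after values were seen, 2 fell (50% against 4.85% of all genes). SPCH (0.07, adjusted p = 0.855) and MUTE (0.09, adjusted p = 0.718) of that group did not pass, and MUTE was below the lower quartile in both genotypes. Of 69 plastid-encoded genes 2 fell (2.9% against 4.85% of all genes) and 0 rose, with a median of -0.12. These were psbA, the photosystem II core protein D1 (-0.61 ± 0.09, adjusted p = 0.0042), and ndhE (-0.80 ± 0.13, adjusted p = 0.00791). Both calls were lost with all 12 arrays in the fit. The share past the threshold was between 9.74% and 12.4% on the 5 nuclear chromosomes. Among the 100 measured genes nearest to the SLIM1 locus in chromosome order, 11 passed (11% against 10.9% of all genes), 7 higher and 4 lower. SLIM1 itself was not analysed here by name, so the mutant label was not checked against it.

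The genotype difference was then compared with that on arsenite. Arsenite differences, their SE and their adjusted p come from a fit over all 12 arrays, with the spread pooled over both metals. The difference under cadmium minus that under arsenite was tested as an interaction over 12 arrays, in which 574 of 13356 genes passed (4.3%). Of the 1462 genes above, 454 were among them. The interaction contains the cadmium difference by which the 1462 were chosen, so this overlap is not a result about them. Leaving out a cadmium array gave an interaction count of 280 (without wild-type replicate 1) to 537, with 311 without slim1-1 replicate 2 and 348 when wild-type replicate 3 was left out. With the replicate number as a block 267 genes passed. Metal, dose and array set cannot be told apart in it. The 2 array sets lie on different scales. Array medians were 6.85 to 6.94 under arsenite and 5.58 to 5.64 under cadmium, and lower quartiles were 4.55 to 4.62 and 3.25 to 3.33. A shift common to an array set cancels in the interaction, but the part of a different floor or spread was not tested. HSP17.6B differed by 3.74 under cadmium and 0.02 under arsenite (interaction adjusted p = 0.000248), UF3GT by 2.21 and -0.05 (interaction adjusted p = 0.00189), and BETA-VPE by 1.48 and 0.08 (interaction adjusted p = 0.000519). HSP17.6C differed by 4.27 under cadmium and 0.02 under arsenite, and DFR by 2.51 and 0.10 (interaction adjusted p = 3.63e-05 and 0.00263). The arsenite means of HSP17.6C were 4.33 in slim1-1 and 4.31 in wild type, and those of DFR were 4.25 in slim1-1 and 4.15 in wild type, all below the lower quartile of the arsenite arrays (4.55 to 4.62). These genes, and likewise HSP26.5, AT1G71000, THI2.1 and nad6, are not shown to be above background in either genotype under arsenite, so their arsenite differences and interactions do not tell whether a difference existed there. BGLU28 differed by -2.90 under cadmium and 0.68 under arsenite (interaction adjusted p = 0.000347), with its wild-type arsenite mean of 4.52 below that quartile, so the arsenite difference is not exact.

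Several genes had opposite signs under the metals. HAT2 was lower under cadmium (-0.51) and higher under arsenite (0.65 ± 0.08, adjusted p = 0.00371), with both differences past the threshold and an interaction adjusted p of 0.000391. IAA29 (-1.06 and 0.77), GSTU25 (1.39 and -0.58), CML37 (1.42 and -0.83) and XTH18 (0.72 and -0.54) also passed the interaction, but their arsenite differences alone did not pass. For other genes no difference between the metals was shown. SDI2 differed by 1.63 under cadmium and 1.89 under arsenite (interaction adjusted p = 0.591), QQS by -1.29 and -1.60 (adjusted p = 0.723), AT4G20820 by 1.93 and 1.91 (adjusted p = 0.981) and AT1G12030 by 2.98 and 3.86 (adjusted p = 0.367). The wild-type arsenite mean of AT1G12030, 4.34, also lay below the lower quartile, and its arsenite difference is not exact. ROF2 (1.94 and 0.58) did not pass the interaction (adjusted p = 0.16), unlike Fes1A (1.88 and 0.16, adjusted p = 0.000771).

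**Figure D5:**
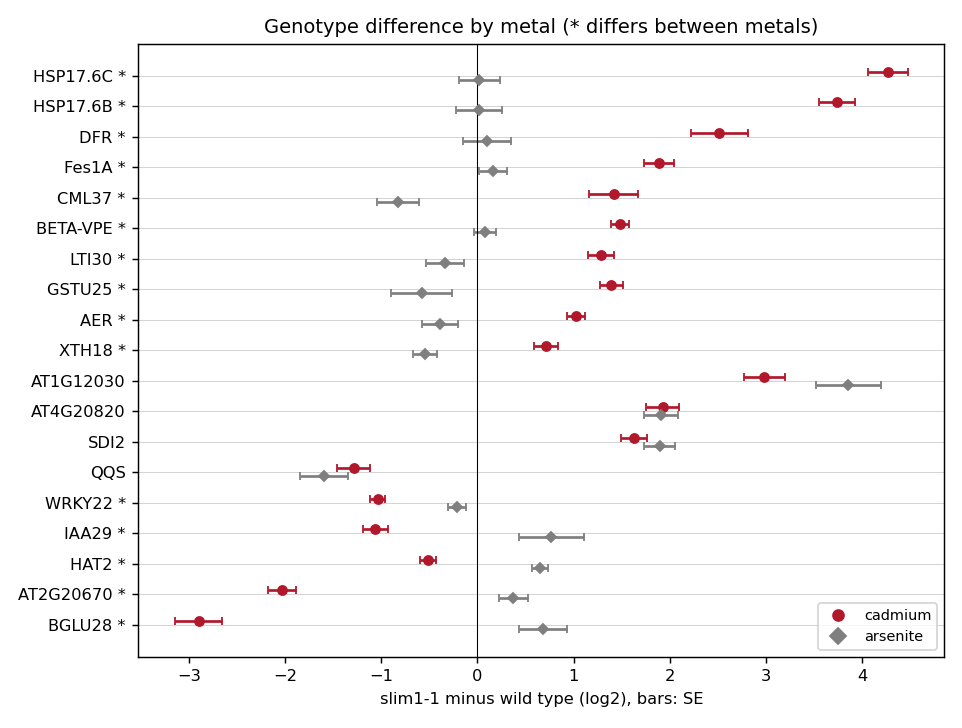
Difference between slim1-1 and wild type (x axis, log2, bars are SE, n = 3 arrays per genotype and metal) under cadmium (circles) and under arsenite (diamonds) for 19 genes, with a star where the interaction passed the threshold. Cadmium bars come from the fit over the cadmium arrays alone. Arsenite bars come from the fit over the arrays of both metals, with the spread pooled, so bar lengths cannot be compared between the metals. HSP17.6C and HSP17.6B lie at 4.27 and 3.74 under cadmium and at 0.02 under arsenite, where HSP17.6C and DFR are not shown to be above background in either genotype, whereas AT4G20820 and SDI2 lie to the right under both metals and QQS to the left.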

How the data were processed

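Total RNA of whole seedlings was labelled with biotin and hybridised to Affymetrix arrays, per the labels' protocols. The deposited values are log2 probe set signals made by the authors with RMA, per the submitters' processing notes, which give no version; its options were not stated there. RMA draws arrays to a shared distribution, so a change of all genes together is not seen, and the values carry no detection calls. Precision is limited by the number of arrays.

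Samples were grouped by genotype and metal from the labels. Of 22746 probe sets that are no controls (64 controls were left out), the probe table pairs 13513 with 1 gene, 503 with several and does not list 8730. The probe set of highest mean over the cadmium arrays was kept for each gene, which left 13356 genes (146 had more than 1). Of these, 13286 matched the RefSeq table of TAIR10.1, which gave locus tags, symbols and chromosome order; the files name no build, so no coordinates are given.

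The genotype difference under cadmium was fitted with limma 3.58.1 in R 4.3.3 (lmFit, eBayes) over the 6 cadmium arrays alone. The arsenite difference and the interaction were fitted over all 12. P-values are two-sided and Benjamini-Hochberg adjusted over all genes, and control probe sets were compared with exact permutation tests. In simulated data of 13356 genes for 3 against 3 arrays, 96% of genes changed by 1 log2 unit were recovered, 64% of those changed by 0.5, 100% at 2 and 92% at -1, with 9 calls among unchanged genes. Only 50 genes per size were changed and the noise was independent between genes and arrays. These rates therefore need not hold for the data, in which 10.9% of genes passed.

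The members and lists were chosen with earlier results of these data known. The 28 lists hold 494 genes, of which 69 were measured, in 23 lists; "measured" means paired with a probe set of 1 gene, and the unlisted probe sets may hold further members. The naming rule took the 12 largest rises and falls whose groups did not overlap, members of each list (up to 8 past the threshold, otherwise up to 2 by p), all measured sulfur genes, and up to 4 genes of each gene family. Patterns written for the families matched unrelated names, so they were replaced by groups defined by symbol after values were seen. Further genes named in the text were also picked then. Neither the lists nor these groups support anything beyond their counts. Some genes that the rule takes are given only in counts. Alternatives were a fit over 12 arrays, a common median, quantile normalization, a trend and robust spread, array weights, genes above the median level, the mean of a gene's probe sets, all probe sets, the replicate number as a block, and leaving out each array.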

Additional observations from a re-analysis of the deposited data

Results flagged for a closer look

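The genotype difference under cadmium differed from that under arsenite, by the interaction over 12 arrays, for 57 of the 124 genes named, 55 of which had passed under cadmium. The values that follow are the cadmium difference minus the arsenite difference on the log2 scale, 34 of them positive and 23 negative. Against 4.3% of all genes, the share is not a result about the genes named, since they were chosen largely for their cadmium difference. GSTU20, EXPA8, CML41, BGLU44, BGLU47, BGLU16, TBL37, SPCH, MUTE, UPOX and NDB2 are also given with values but are not among the 124. The counts here, and those of named genes over the settings, do not cover them. Some of the 57 lay near the threshold, with an interaction adjusted p of 0.0482 for IAA29, 0.0466 for PDF2.1 and 0.0464 for ETFQO. It was 0.0442 for HIS1-3, 0.0439 for ORA47 and 0.0419 for GI. How the interaction of each gene depends on single arrays is not given here.

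Under arsenite, 6 of the 57 genes had both genotypes below the lower quartile of the arsenite arrays (HSP17.6C, DFR, HSP26.5, AT1G71000, THI2.1 and nad6) and 4 had 1 genotype below it (UGT75C1, BGLU28, 5MAT and AT12CYS). These 10 are not shown to be above background there, so their values are not exact.

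Among chaperone genes the value was 4.25 for HSP17.6C, 3.72 for HSP17.6B, 2.14 for HSP26.5 and 1.72 for Fes1A. Among flavonoid and related genes it was 2.42 for DFR, 2.25 for UF3GT, 2.24 for UGT75C1, 1.52 for 5MAT and 1.07 for UGT84A3. Among conjugating and protective genes it was 1.97 for GSTU25, 1.57 for GSTU26, 1.15 for UGT73B4, 0.97 for UGT73B5, 0.79 for AT12CYS, 1.2 for CYP71B26, 1.41 for AER and 0.84 for SAPX. Stress regulators and water shortage genes gave 1.35 for ZAT10, 2.24 for CML37, 1.62 for LTI30 and 0.90 for HIS1-3.

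Protein breakdown, respiration and carbon genes gave 1.4 for BETA-VPE, 0.62 for scpl20, 0.50 for SDH2-1, 1.31 for nad6, 0.98 for APL3, 0.68 for TMT2, -0.57 for ETFQO and -1.08 for AKINBETA1. Cell wall, clock and peptide genes gave 1.26 for XTH18, 0.89 for EXLB1, 0.51 for GI, 1.53 for PDF2.1 and -0.68 for THI2.1. PDF2.1 did not pass under cadmium (0.20 ± 0.14, adjusted p = 0.407). The sulfur genes gave -3.58 for BGLU28, -0.88 for APS3, 0.81 for APS4, -0.61 for MGL and -0.85 for MSRB6, and APS4 likewise did not pass under cadmium.

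Hormone and iron regulators gave -1.83 for IAA29, -1.16 for HAT2, -1.0 for GH3.3, -0.87 for ORA47, -0.83 for WRKY22 and -0.60 for bHLH121. Among loci without a symbol the value was 2.03 for AT4G33550, 2.08 for AT1G71000, -2.40 for AT2G20670, -1.32 for AT1G15010, -2.07 for AT2G25200, -1.47 for AT1G62510 and -1.92 for AT3G60270. It was -1.63 for AT3G23880, -1.78 for AT2G37950, -1.63 for AT4G27450, -1.64 for AT4G28290 and -1.13 for AT5G59680.

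A signal also lay in probe sets that the tables used here pair with no gene. In a fit of all 22746 probe sets, 16.0% of the 8730 unlisted probe sets passed (1401), against 11.3% of the 13513 paired with 1 gene (1530). The unlisted probe sets had the higher median level, 6.26 against 5.05, and its part in the difference was not tested. The largest rises among them, both above that of HSP17.6C, were in 250351_at, with means of 9.36 in slim1-1 and 4.43 in wild type, and 250296_at, with means of 7.91 in slim1-1 and 3.21 in wild type. The largest falls were in 266901_at (-2.72 ± 0.41) and 263539_at (-2.24 ± 0.55).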

How the results depend on the processing

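The count of 1462 genes was 1646 with all 12 arrays in the fit, 1568 with a common median, 1467 when the 6 arrays were quantile normalized, 1714 with a trend and robust spread and 2008 with array weights. With all probe sets it was 2969 (1684 higher, 1285 lower, 267 at least 2-fold), which counts more features. Leaving out an array gave 653 to 1312 genes, 361 to 751 of them higher and 280 to 561 lower, with 107 to 145 at least 2-fold. The interaction count of 574 ranged from 280 to 537. Fewer arrays enter each such fit. With the replicate number as a block, 1309 genes passed under cadmium and 267 in the interaction. Deviations from the genotype mean in arrays of equal number had correlations of -0.0026, 0.0952 and -0.0077. With 3 arrays per genotype, these cannot tell whether a number stands for a shared batch. The 124 named genes gave 1714 values over 14 settings. Of these 1576 kept direction and side of the threshold, 126 lost a call, 11 gained one and 1 reversed: COR15A, which ranged from -0.099 without wild-type replicate 3 to 0.766 without wild-type replicate 2. Of 102 named calls, 69 held under each of these 14 settings in which the gene was present. The fit of all probe sets is not among the 14, and genes of low level are absent from the fit of genes above the median level. The cause of the other changes was not tested. Signals below the lower quartile of an array are not shown to be above background. This limits the cadmium differences of HSP17.6C, BGLU47 and THI2.1. It also limits the arsenite differences and interactions of the 10 genes named as low under arsenite, and of AT1G12030.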

Other observations

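Further gene families, grouped by symbol after values were seen, held smaller numbers of calls in the same comparison. Of 21 beta-glucosidases 4 rose and 2 fell (28.6% against 10.9% of all genes), with BGLU44 at 1.00 (adjusted p = 0.0005) and BGLU47 at 0.72 (adjusted p = 0.0055) among the rises, and BGLU28 and BGLU16 (-0.40, adjusted p = 0.0183) as the falls. Of 22 TRICHOME BIREFRINGENCE-LIKE genes, whose products add acetyl groups to cell wall polymers, 3 rose (13.6% against 6.09% of all genes) and 1 fell. The fall was in TBL37 (-0.76, adjusted p = 0.0014). Without a given array, the number of these genes that rose ranged from 0 to 3. Of 40 AGAMOUS-LIKE transcription factors 1 rose and 0 fell (2.5% against 10.9% of all genes). Of 8 OTP genes, which act on organelle transcripts, 0 rose and 1 fell (12.5% against 10.9%).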
